A study of Rattus norvegicus with 2 samples.

Results

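Cytochrome c oxidase, or complex IV, is the last enzyme of the mitochondrial respiratory chain: it passes electrons from cytochrome c to oxygen and pumps protons across the inner membrane. Its catalytic core is encoded by mitochondrial DNA, and the smaller subunits around that core are encoded in the nucleus, several of them in tissue-specific isoforms. In liver, as in other tissues, the chain supplies the ATP on which gluconeogenesis and urea synthesis draw. The 8 genes described here, Cox4i1, Cox5a, Cox5b, Cox6a1, Cox6c, Cox7a2, Cox7c and Cox8a, are nuclear genes for such subunits, taken as the library spots whose symbol is exactly one of these names. They account for 8 of 21761 probes. The set was chosen by the log2 ratio of Cox5b on the arrays described here, which an earlier look had found low on both, and the other subunits were added to stand beside it. The ratios below are therefore a description, with no test.

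The RNA came from the livers of adult male Wistar rats made diabetic by a single injection of streptozotocin, a toxin of pancreatic beta cells, at 65 mg/kg after a 12 h fast. At 72 h, those whose blood glucose exceeded 200 mg/dl were divided into rats given γ-conglutin, which is a protein of lupin seeds, dissolved in 0.9% NaCl at a dose of 120 mg/kg, and rats given the 0.9% NaCl vehicle alone. Treatment lasted 7 days. Both groups were therefore diabetic, and no healthy rats were compared. Each treatment was represented by pooled RNA of 5 rats, and both pools were hybridised together on each of 2 arrays: array 1 carried the γ-conglutin pool in Alexa647 and the vehicle pool in Alexa555, and array 2 carried them with the dyes exchanged. Each treatment is thus 1 sample read on 2 technical repeats, so the spread between rats is unknown and no p-value is given. In pooled liver RNA, fewer cells of a type and less RNA per cell cannot be told apart.

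The array was built on mouse transcripts, and rat cDNA was hybridised to it. The probes of 6 members were named from RefSeq mRNAs, that of Cox6c from 1 full-length cDNA clone and that of Cox8a from 1 expressed sequence tag. Each member had 1 probe and 1 spot. The rat gene table of assembly GRCr8 lists all 8 symbols and 11 pseudogenes named for 6 of them: 3 each for Cox6c and Cox7c, 2 for Cox6a1 and 1 each for Cox4i1, Cox5b and Cox7a2. How far a spot reads such copies was not tested.

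The promoters of the members are shown because nuclear subunit genes of this complex are known for upstream sites of ETS-family factors, among them GABP (also called NRF-2), whose binding core is CGGAAG. RefSeq promoters of assembly GRCr8 were found for 6 of the 8 members. The 250 bases before the gene's start are given 5′ to 3′ for Cox5b (chr9:46417587-46417836, plus strand), Cox5a (chr8:66818034-66818283, plus strand) and Cox8a (chr1:213833624-213833873, minus strand), with CGGAAG on either strand in capitals.
Cox5b: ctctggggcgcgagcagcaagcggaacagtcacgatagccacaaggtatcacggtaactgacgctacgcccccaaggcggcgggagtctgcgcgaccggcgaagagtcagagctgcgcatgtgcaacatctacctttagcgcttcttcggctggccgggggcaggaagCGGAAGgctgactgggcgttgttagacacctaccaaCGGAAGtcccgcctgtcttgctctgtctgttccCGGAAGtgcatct
Cox5a: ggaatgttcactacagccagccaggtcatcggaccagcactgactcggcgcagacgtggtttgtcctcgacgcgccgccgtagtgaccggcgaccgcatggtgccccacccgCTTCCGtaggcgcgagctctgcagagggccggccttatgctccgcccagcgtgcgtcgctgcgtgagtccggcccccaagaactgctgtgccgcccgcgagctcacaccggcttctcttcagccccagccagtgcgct
Cox8a: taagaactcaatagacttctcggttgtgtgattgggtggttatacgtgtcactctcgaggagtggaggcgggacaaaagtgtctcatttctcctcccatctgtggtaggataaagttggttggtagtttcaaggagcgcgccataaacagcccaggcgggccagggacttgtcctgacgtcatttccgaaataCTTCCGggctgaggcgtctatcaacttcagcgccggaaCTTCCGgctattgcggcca
The Cox5b promoter held 3 copies, all on the strand shown, beginning 82, 46 and 13 bases before the start. The Cox8a promoter held 2 copies, 57 and 19 bases before the start, the Cox5a promoter 1 copy at 138 bases and the Cox7a2 promoter 1 copy at 43 bases, all of these on the opposite strand. No copy lay in the same window of Cox4i1 or Cox7c. Among 21851 promoters of protein-coding genes cut to the same length, 16.8% held at least 1 copy, 4.09% at least 2 and 0.970% at least 3. The median share of G and C bases was 54% in these promoters. It was 61.2% for Cox5b, 68% for Cox5a, 63.2% for Cox7a2, 52.4% for Cox8a, 64.8% for Cox4i1 and 45.2% for Cox7c. The part of base composition in the counts was not tested. A match is a description of these letters and shows no binding in these livers.

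Library spots had median raw intensities of 1179 to 1683 scanner units across the 4 channels. A spot counts as above background where its raw intensity exceeds the local background by more than 2 SD of that background. All 8 member spots did so in every channel, but between 49.2% and 77.5% of empty spots met this rule too, so it separates little. All 8 member spots also exceeded the 95th percentile of empty spots in every channel, and 0 member channels were saturated. The number of arrays limits the precision: as a guide to the spread of a single spot, 231 control spots of 1 Gapdh probe had an SD of 0.12 in log2 ratio across spots on each array. The mean of these Gapdh spots was itself below 0, at -0.29 on array 1 and -0.18 on array 2, less low than Cox5b on each array. The liver label was set against marker lists. All 13 measured hepatocyte markers lay above the 95th percentile of empty spots, with albumin (Alb) at percentile 93.5 of probes by intensity, but Apob, also a main product of hepatocytes, lay at percentile 9.42. All 7 measured markers of skeletal and heart muscle exceeded the same limit, with the muscle creatine kinase Ckm at percentile 82.8, so the probe names separated liver from muscle poorly. Across 1024 genes with 2 probes, the intensities of one probe and the other correlated with an r of only 0.08, given as a description. A gene name below therefore stands for the spot so named.

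Cox5b encodes a matrix-facing subunit that carries zinc. The Cox5b spot was lower in the γ-conglutin pool than in the vehicle pool on both arrays. Its raw intensity was 9717 and 9627 in the γ-conglutin pool on arrays 1 and 2, against 15401 and 10255 in the vehicle pool, over backgrounds of 48.6 and 67.8 in the γ-conglutin channels and of 46.4 and 48.4 in the vehicle channels. Both γ-conglutin readings lay below both vehicle readings, with the dyes exchanged between the arrays, as the choice of Cox5b for a low ratio favours. The share of all probes with this order was not counted. Without any normalization, the log2 ratio of the background-subtracted signals (γ-conglutin over vehicle) was -0.67 on array 1 and -0.09 on array 2.

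**Figure D1:**
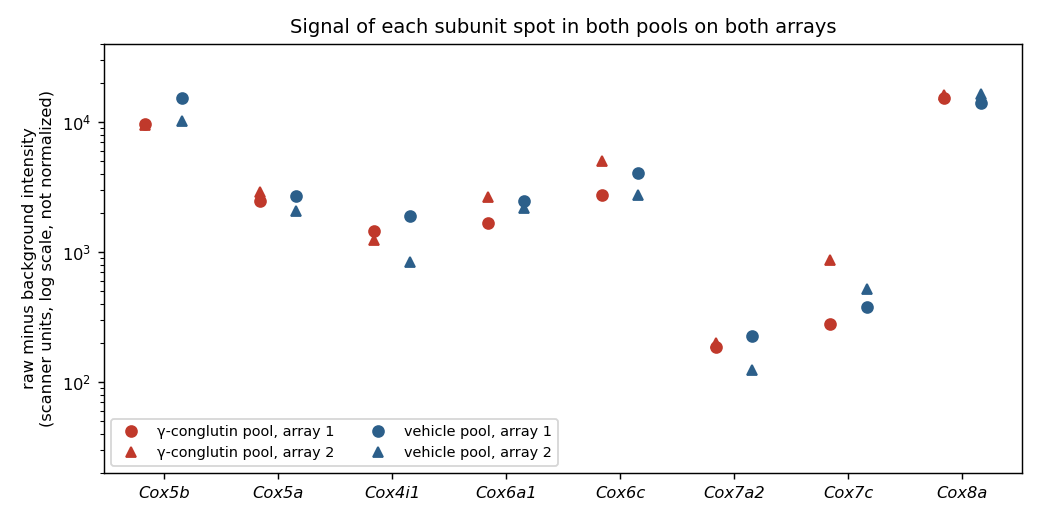
Raw minus background intensity of the single spot of each cytochrome c oxidase subunit, in scanner units on a log axis and not normalized, in the γ-conglutin pool (red, left) and the vehicle pool (blue, right) on array 1 (circles) and array 2 (triangles). For Cox5b both red points lie below both blue points, by little on array 2, where its log2 ratio before normalization was -0.09. Cox5b was chosen for a low ratio, and the share of all probes with this order was not counted.

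After correction of the background and of the dye trend with intensity, the Cox5b log2 ratio (γ-conglutin over vehicle) was -0.54 on array 1 and -0.34 on array 2, with a mean of -0.44 ± 0.15 (SD over the 2 arrays), a level 0.737 times that of the vehicle pool. The part of the ratio that follows the dye, Alexa647 over Alexa555, was -0.10, smaller than the part that follows the pool. On the same spot the SD of pixel intensities was 20.5% and 8.68% of the mean in the γ-conglutin channels of arrays 1 and 2, and 18.3% and 10.7% in the vehicle channels. A mean ratio below that of Cox5b was found for 0.281% of all probes. The direction rests on the submitters' labels of the channels.

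None of the other 7 subunits was as low. Their means over both arrays were above 0 in 6 of 7, Cox6a1 being the exception, where 9245 of 17157 named genes had a mean above 0. The median of the 7 means was 0.10, and 4 of the 7 subunits were positive on both arrays, against 16.6% of all probes. Taken per array, their median log2 ratio was 0.01 on array 1 and 0.03 on array 2, and their single values ran from -0.23 to 0.24 on array 1 and from -0.21 to 0.42 on array 2. Cox5b was the lowest of the 8 on each array, as its choice for a low ratio favours. Taken against the median of the other subunits on the same array, the Cox5b log2 ratio was lower by a mean difference of -0.46, with -0.56 on array 1 and -0.37 on array 2. A size rule was set at a log2 ratio of 0.32 or more, up or down, reached with the same sign on each array. By it, 1 of the 8 members was lower with γ-conglutin: Cox5b, which was chosen for low ratios on both arrays. Of the other 7, 0 were lower, where 0.304% of all probes were. Higher were 0 members, where 0.00461% of all probes were. With a change of 1.5-fold asked of each array, 0 members were lower, as were 0% of all probes, and Cox5b stayed short of that fold on each array.

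**Figure D2:**
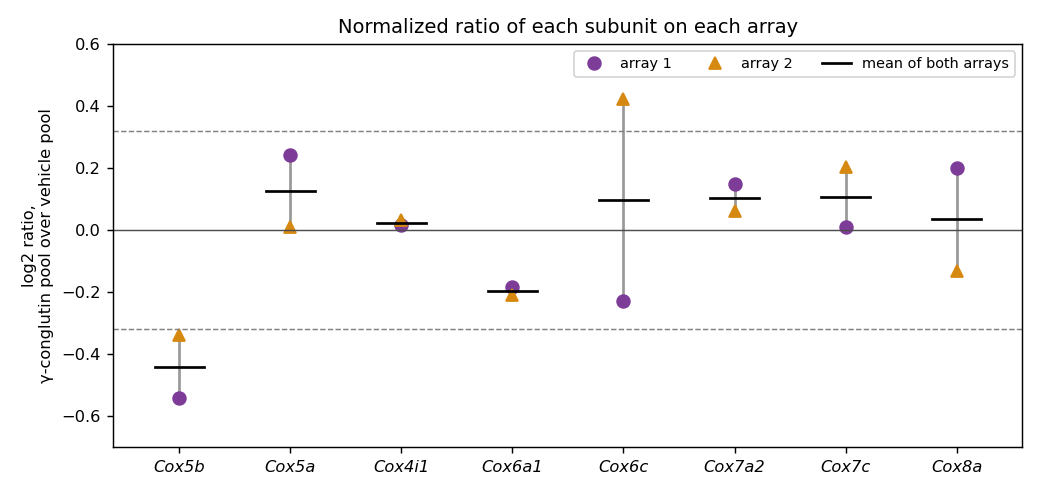
Normalized log2 ratio (γ-conglutin over vehicle) for each subunit on array 1 (circles) and array 2 (triangles), with the mean of both arrays as a black bar and the size rule of 0.32 in either direction as dashed lines. Cox5b, chosen for a low ratio, is at -0.54 and -0.34, the only subunit with both points beyond a dashed line on the same side.

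Cox5a encodes another matrix-facing subunit, and Cox4i1 the ubiquitous isoform of subunit IV, on which assembly around the catalytic core begins. The Cox5a spot read 2545 and 2935 in the γ-conglutin pool on arrays 1 and 2, against 2738 and 2104 in the vehicle pool. Its log2 ratio was 0.24 on array 1 and 0.01 on array 2 (mean 0.13 ± 0.16), the highest mean of the 8, and its groups of readings overlapped. The Cox4i1 spot read 1499 and 1279 in the γ-conglutin pool, against 1921 and 893 in the vehicle pool. The Cox4i1 log2 ratios were 0.01 and 0.03 (mean 0.02 ± 0.01), close to 0 on both arrays. With print-tip loess, that is, loess fitted by block, however, they were -0.20 and 0.14, so the closeness of the arrays for Cox4i1 depended on the normalization.

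Cox6a1 encodes the form of subunit VIa found in liver, and it was the other member with negative ratios on both arrays. Its spot read 1708 and 2700 in the γ-conglutin pool, against 2509 and 2244 in the vehicle pool. The log2 ratios were -0.18 on array 1 and -0.21 on array 2 (mean -0.20 ± 0.02), below 0 by more than the difference between the arrays but short of the size rule on each. The Gapdh control spots had means of -0.29 and -0.18 on arrays 1 and 2. A mean ratio below that of Cox6a1 was found for 8.27% of all probes. The mean for Cox6a1 stayed negative in all 8 ways of processing compared, between -0.20 and -0.17. Of the 8 members, 2 were negative on both arrays, against 16.1% of all probes, and 4 were positive on both, against 16.6%. The same sign on both arrays was thus seen for 6 of 8, where 32.7% of all probes had it. Cox5b, chosen for low ratios on both arrays, was among these 6 and among the 2 negative on both. Of the 6, 4 had means within 0.13 of 0. The count was 4 with median centring and 5 with print-tip loess, the deposited net intensities and the deposited log2 ratios.

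Of the small membrane-spanning subunits Cox6c, Cox7a2, Cox7c and Cox8a, Cox6c and Cox8a had opposed arrays and the others were positive on both. Their means were all above 0, from 0.03 to 0.11, but that of Cox8a was -0.01 with median centring. Cox6c had 2803 and 5098 in the γ-conglutin pool, against 4130 and 2821 in the vehicle pool, so the higher reading in each array was the one in Alexa555. Its log2 ratios were opposed, -0.23 on array 1 and 0.42 on array 2 (mean 0.10 ± 0.46), and its dye part of -0.33 was larger in size than its pool part. Cox7a2, the form of subunit VIIa found in liver, was the dimmest member relative to all probes, at percentiles 14.9 and 11.5. It read 233 and 245 in the γ-conglutin pool, against 264 and 173 in the vehicle pool, with log2 ratios of 0.15 and 0.06 (mean 0.10 ± 0.06).

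Cox7c had raw intensities of 324 and 920 in the γ-conglutin pool, against 411 and 566 in the vehicle pool. Its log2 ratios were 0.01 and 0.20 (mean 0.11 ± 0.13), both on the positive side and neither past the size rule. Cox8a, the form of subunit VIII found in liver and most other tissues, had a spot as bright relative to all probes as that of Cox5b: percentiles 87.5 and 90.3 on arrays 1 and 2, against 85.4 and 84.7 for Cox5b. The Cox8a spot read 15385 and 16149 in the γ-conglutin pool, against 14085 and 16557 in the vehicle pool. Its log2 ratios were opposed, 0.20 on array 1 and -0.13 on array 2 (mean 0.03 ± 0.23). The part of brightness in either ratio was not tested.

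Set against each subunit singly, Cox5b had the lower log2 ratio on both arrays, as its choice for a low ratio favours, and the sizes of the differences are given as a description. The mean difference was -0.57 ± 0.31 against Cox5a, -0.55 ± 0.01 against Cox7c, -0.55 ± 0.21 against Cox7a2 and -0.54 ± 0.32 against Cox6c. It was -0.47 ± 0.38 against Cox8a and -0.46 ± 0.13 against Cox4i1. The smallest difference was that to Cox6a1, -0.24 ± 0.16, with -0.36 on array 1 and -0.13 on array 2. On array 2 the gap to Cox6a1 was about the SD of the Gapdh control spots, so the order of these neighbours is not separated there beyond the spread of single spots.

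**Figure D3:**
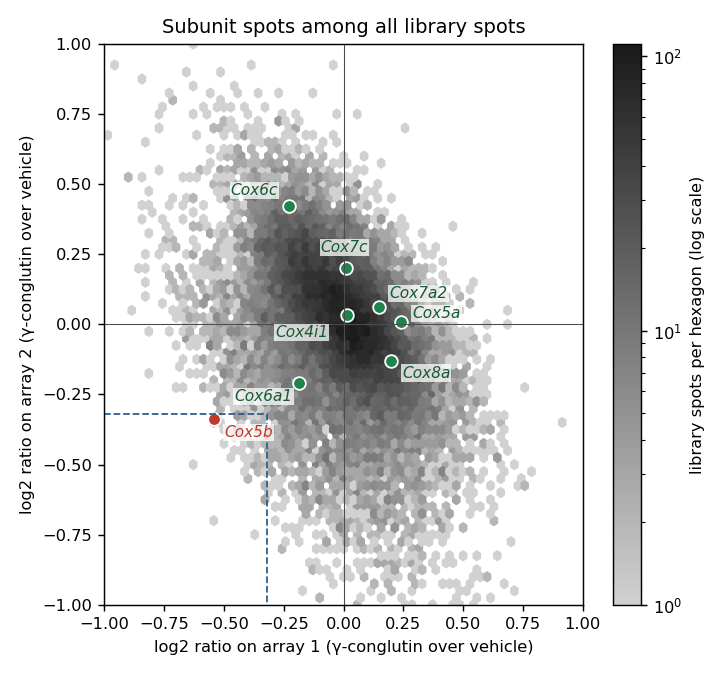
Log2 ratio (γ-conglutin over vehicle) on array 1 (horizontal) and array 2 (vertical) for all library spots (grey hexagons, darker for more spots on a log scale, the lightest holding 1 spot), with the 8 subunits as points and dashed lines around the region at or below -0.32 on both arrays. The cloud slopes downwards (r = -0.44 across probes), Cox6c and Cox8a have opposed ratios along that slope, and Cox5b lies in the lower left at -0.54 and -0.34; 43 spots beyond 1 on an array are not drawn.

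Across all probes the ratios of both arrays had an r of -0.44, that is, they followed the dye more than the pool, and over all probes the mean pool ratio had an SD of 0.12, and the mean dye ratio one of 0.19. Probes at or below -0.32 on both arrays numbered 66, of which 42 were among the 4341 brightest by mean intensity, where they made up 0.968%. Cox5b was among these bright probes, and the part of brightness in its ratio was not tested. Position on the slide was set beside the ratio too. The 8 library spots adjacent to the Cox5b spot had a median of -0.16 on array 1 (from -0.44 to -0.07) and of 0.13 on array 2 (from -0.29 to 0.38), and 0 of them were at or below -0.32 on both arrays. Cox5b, chosen for a low ratio, was lower than each of its 8 neighbours on both arrays. The part of position in its ratio was not tested. The 449 probes of its print-tip block had medians of -0.08 and 0.08, and with loess within each block the Cox5b ratios were -0.44 and -0.43.

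Over 8 ways of processing the same arrays, which changed the background correction, the normalization or the starting columns, the mean Cox5b log2 ratio ran from -0.44 to -0.40. Cox5b was the lowest member on each array in all 8, as its choice for a low ratio favours. The distance between the arrays changed more. The SD over the arrays was 0.15 with global loess on the raw intensities and 0.03 with global loess on the deposited net intensities. It was 0.01 with loess within print-tip blocks. Turned by the dye labels, the authors' deposited log2 ratios gave -0.41 on array 1 and -0.39 on array 2, with an SD of 0.01. Median centring, which leaves the dye trend with intensity in place, gave -0.36 and -0.51 for Cox5b, and 0.43 and -0.46 for Cox8a.

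**Figure D4:**
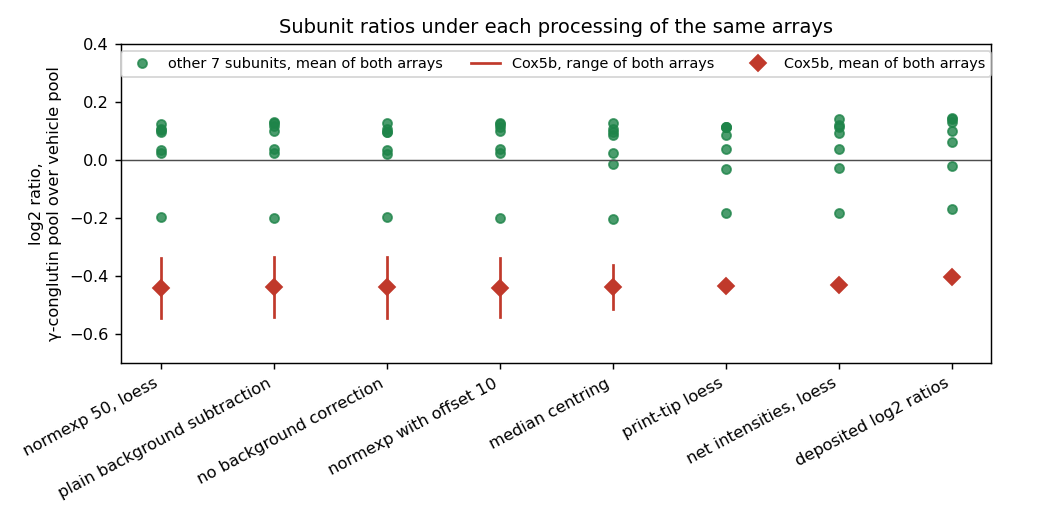
Log2 ratio (γ-conglutin over vehicle) under each of 8 ways of processing the same arrays, for Cox5b (red diamonds, mean of both arrays, with a line from one array to the other) and for the other 7 subunits (green points, mean of both arrays). Cox5b, chosen for a low ratio, stays between -0.44 and -0.40, below the lowest of the other subunits in every column.

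Of the remaining cytochrome c oxidase subunits, including tissue isoforms, 9 of 14 listed genes were measured, and 0 of 9 passed the size rule in either direction, whereas 0.286% of all named genes were lower by it and 0.00583% higher. Their median mean log2 ratio was -0.00, against 0.01 over all named genes. Both arrays were negative for 2 of the 9: Cox4i2, the hypoxia-responsive isoform of subunit IV known from lung, with -0.18 and -0.22 (mean -0.20 ± 0.03), and Cox7a2l, a factor of respiratory supercomplexes, with -0.10 and -0.11 (mean -0.11 ± 0.01). Both were positive for another 2: the muscle isoform Cox7a1, with 0.02 and 0.20, and Ndufa4, a complex IV subunit formerly assigned to complex I, with 0.04 and 0.03. The mean for Ndufa4 was negative in 3 of the 8 ways of processing, while those for Cox4i2, Cox7a2l and Cox7a1 kept their sign in all 8. The ubiquitous subunit Cox6b1 had -0.25 and 0.25.

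For the isoforms known from heart and muscle, Cox6a2 had -0.25 on array 1 and 0.50 on array 2, the highest mean of the 9 at 0.13 ± 0.53, and Cox8b had 0.23 and -0.04. The testis isoforms Cox8c and Cox7b2 had -0.47 and 0.37, and 0.06 and -0.08. The Cox8c spot was bright for a gene known from testis: it read 28316 and 25707 in the γ-conglutin pool, against 34934 and 20076 in the vehicle pool, and Cox6a2 read 11481 and 11907 in the γ-conglutin pool, against 14648 and 7007 in the vehicle pool. All 9 spots of this list exceeded the 95th percentile of empty spots in every channel, as most probes did, those of the heart, muscle and testis isoforms included. What these spots hybridise in liver cDNA was not tested.

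Of the factors that assemble the complex, 10 of 19 were measured, 0 passed the size rule in either direction, and the median was 0.02. In 2 of them the arrays had the same sign, positive each time: Cox10, the enzyme that farnesylates heme on the way to heme a, with 0.05 and 0.07, and the twin-cysteine assembly factor Cox19, with 0.06 and 0.05. Surf1, an assembly factor whose loss causes complex IV deficiency in humans, had the lowest mean of the 10, -0.32 ± 0.48, from 0.03 on array 1 and -0.66 on array 2, so the value rests on array 2. The inner-membrane insertase Oxa1l had the highest mean, 0.10 ± 0.28, from -0.10 and 0.29. The other members of this list were Cox15 (-0.06 and 0.23), which converts heme o to heme a, Cox11 (-0.16 and 0.16) and Sco1 (0.25 and -0.26), which deliver copper, Cox16 (-0.02 and 0.13), Cmc1 (-0.19 and 0.05) and the mitochondrial mRNA-binding protein gene Lrpprc (0.06 and -0.07).

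Across 76 measured genes of the respiratory chain and ATP synthase, of 89 listed, Cox5b, chosen for a low ratio, had the lowest mean log2 ratio. The 76 include Cycs (cytochrome c), the assembly factor Bcs1l and the ATP synthase inhibitor Atpif1, which are not subunits. Cox5b was the only gene at or below -0.32 on both arrays, but at -0.34 it was just past the rule on array 2. The SD of the Gapdh control spots was 0.12 on each array. Cox5b was the lowest in 5 of the 8 ways of processing. With plain subtraction, the net intensities and the deposited log2 ratios Sdhc was lower, at -0.99, -1.09 and -1.09, and with the deposited log2 ratios Sdhc too was at or below -0.32 on both arrays and Uqcrb, at -0.42, also had a lower mean than Cox5b. The median of the 76 was 0.02. In complex I, 21 of 32 measured genes had a mean above 0, where 9245 of 17157 named genes did. Its median was 0.03, with 0 genes past the size rule. Its lowest member was Ndufa9, an accessory subunit near the quinone site, with -0.30 on array 1 and -0.38 on array 2 (mean -0.34 ± 0.06), just short of the size rule on array 1, and its highest was Ndufa12, with 0.36 and -0.05. Complex II had a median of 0.05 over 4 genes, between Sdha, the flavoprotein, at 0.11 ± 0.22 and Sdhc, a membrane anchor, at -0.10 ± 0.17. The Sdhc spot stood only 2.96 and 3.97 units over background in the γ-conglutin pool and 6.11 and 6.39 units in the vehicle pool, and over the 8 ways of processing its mean lay anywhere between -1.09 and -0.09, so its ratio is not settled by these arrays.

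Complex III with cytochrome c had a median of -0.02 over 10 genes. Its lowest mean was that of the subunit gene Uqcrb, -0.40 ± 0.93, the value nearest to Cox5b among the 76, but Uqcrb had opposed ratios of 0.26 and -1.06. Its highest was Uqcrq, with 0.07 and 0.30. ATP synthase had a median of 0.01 over 13 genes, with 4 negative on both arrays and 2 positive on both. The lowest was Atp5d, a subunit of the central stalk, with -0.10 and -0.68 (mean -0.39 ± 0.41), and the highest was Atp5j2, a subunit of the membrane part, with 0.53 and 0.11 (mean 0.32 ± 0.30). Of 9 measured regulators of mitochondrial genes, 0 passed the size rule, with means from -0.30 ± 0.78 for Tfb2m, a mitochondrial transcription factor, to 0.11 ± 0.29 for Gabpa, the DNA-binding subunit of GABP.

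**Figure D5:**
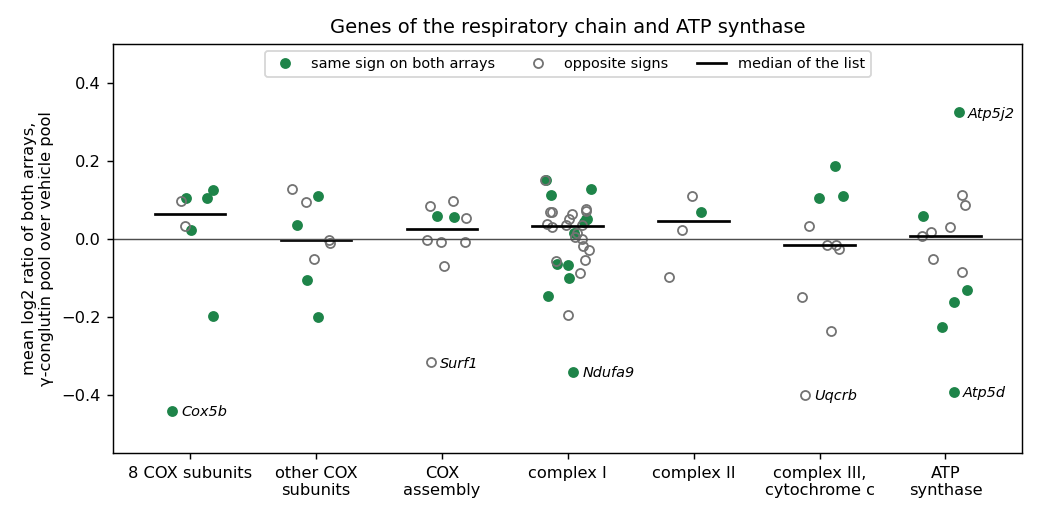
Mean log2 ratio of both arrays, γ-conglutin over vehicle, for each measured gene of the lists named on the axis, filled where both arrays have the same sign and open where they are opposed, with the median of each list as a black bar. List medians lie between -0.02 and 0.07. Cox5b, chosen for a low ratio, is at -0.44, the lowest point with global loess after normexp.

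Among 17294 other named probes above the 95th percentile of empty spots, the 3 nearest to Cox5b by Euclidean distance over the ratios of both arrays were those of Tfrc, the transferrin receptor gene, at -0.52 and -0.32 (distance 0.03), Gdf15, which encodes a growth differentiation factor, at -0.54 and -0.28 (distance 0.06), and Il13, an interleukin gene, at -0.49 and -0.37 (distance 0.06). With 2 arrays this likeness covers 2 values per probe and says no more than that these spots had similar ratios.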

How the data were processed

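Liver cDNA of 1 pool per treatment was measured on 2 2-colour arrays with the dyes exchanged. Per the file headers, the deposited tables hold mean raw and background intensity per spot and dye, net intensities and their ratio, Alexa555 over Alexa647. The deposited log2 values of the series table equal log2 of that ratio. Scanner and software are not given in the sources used here.

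Starting from raw and background intensities, limma 3.58.1 (R 4.3.3) applied normexp (offset 50) and global loess fitted to library spots. Array 2's log2 ratio was multiplied by -1, giving γ-conglutin over vehicle on both. Of 21761 probes (spots of the same accession, symbol and description averaged), 21702 were above background (by 2 SD) in at least 1 channel of both arrays. Many empty spots also met the rule of 2 SD. The brightest probe stood for a gene. Summaries used Python 3.11.15, numpy 2.4.6, pandas 2.3.3 and matplotlib 3.10.9. Members and lists were chosen with earlier results of these data known. Named genes were all members and other measured complex IV genes, the highest and lowest of each other list, and the 3 probes nearest to Cox5b. Steps were tested on simulated data. Alternatives covered background, normalization, filters, size rule, deposited values and each array alone. With 1 pool per treatment no test over samples was made.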

Additional observations from a re-analysis of the deposited data

How the results depend on the processing

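The Cox5b log2 ratio and its difference from the other subunits changed little with the background correction, normalization and starting columns, the Cox5b mean lying between -0.44 and -0.40 and the difference between -0.51 and -0.46; the filters cannot change Cox5b, and a single array always lies within 1 SD of the mean of 2. Without 1 of the arrays the Cox5b ratio was -0.54 or -0.34 and the difference -0.56 or -0.37. The median of the other subunits, 0.02 with an SD of 0.01 over the arrays, was 0.0687 with print-tip loess, 0.0817 with the deposited net intensities and 0.0893 with the deposited log2 ratios; the cause was not tested. Probes at or below -0.32 on both arrays numbered 66, against 137 with plain subtraction, 33 with median centring, 151 with the net intensities, 122 with the deposited log2 ratios and 0 at 1.5-fold, where 0 members passed too. On 1 array alone, where the rule asks for less, they numbered 1353 to 2066. Without 1 of the arrays, the list medians ran from -0.0378 to 0.0245 for all 76 genes, from -0.0216 to 0.0699 for complex III and from -0.0971 to 0.0332 for the other complex IV subunits. They ran from -0.0695 to 0.0838 for complex I, from -0.0390 to 0.0854 for complex II and from -0.103 to 0.0725 for ATP synthase. Each of these 6 medians thus changed sign between the arrays. The count of members with the same sign on both arrays and the rank of Cox5b by setting were chosen after values were seen. Both pools share every array, so each log2 ratio already pairs them. With only 1 pool per treatment, no paired test was possible. Signal over background limits dim probes. All 8 members exceeded the 95th percentile of empty spots, as most probes did.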
